A study of Mus musculus with 8 samples.

Results

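Sebaceous gland genes were followed in dorsal skin of mice after depilation, with and without topical alpinetin. The set holds 9 genes of the lipid-producing cells of the gland (sebocytes) among the 18770 genes of the deposited table: Fasn, Scd1, Scd3, Elovl3, Soat1, Far2, Cidea, Mgst1 and Krt79. A gene entered the set if its symbol in the table was on a list of sebocyte genes, and all 9 were found. Wildtype male C57BL/6J mice, labelled as C57BL/6 and as 7 to 8 weeks old, were depilated on the back. Starting a day later, they received either 65% ethanol (vehicle control, VC) or alpinetin, a plant flavonoid, at 3 mg/ml in 65% ethanol (AP) every day. Skin was collected on day 4 after depilation, the interfollicular epidermis was removed, and messenger RNA of the remaining dermis with its hair follicles was sequenced in 4 VC and 4 AP libraries. The columns of the table name the group but cannot be matched to individual mice, so a number after VC or AP (as in VC.1) only tells the libraries of a group apart and pairs none of them across groups. Values are listed in the order of these numbers. Whether a library pools the depilated areas of a mouse was not given in the sources used here, and p-values measure the spread between these libraries.

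The sebaceous gland opens into the upper part of the hair follicle. Its cells fill with lipid as they mature and then burst, releasing sebum, a mixture of triglycerides, wax esters and cholesterol esters that coats hair and skin. Sebocytes make fatty acids from acetyl-CoA, lengthen them, place double bonds in them, reduce some of them to fatty alcohols, and join the products into esters that collect in droplets. Several of these enzymes also work in fat cells, so a level in whole dermis is not that of the gland alone.

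The 4 VC libraries held 6454563 to 7264151 reads on genes and the 4 AP libraries 8507783 to 11190113. Transcripts of the mitochondrial genome took 48.4% ± 5.81 of these reads in the VC libraries and 8.66% ± 2.63 in the AP libraries (SD, n = 4 each), a difference with an exact permutation p of 0.0286 (two-sided), the smallest that 4 against 4 libraries allow. Values are normalized counts, that is, reads divided by a size factor for each library. At the smallest of these depths, 3 reads were worth 5.63 normalized counts in VC.4, so every member lay far above the counting floor.

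One VC library stood apart for the sebaceous gland genes. VC.2 was the highest of the VC libraries for 9 of the 9 members, against 22.0% of the 15964 genes tested, and the highest of all 8 libraries for 8 of them. It was at least 2 times the next VC library for 8 of the 9 members and for 2.46% of the genes tested. Relative to the mean of VC.1, VC.3 and VC.4, VC.2 ran from 2.26-fold for Fasn to 4.89-fold for Far2, with a median of 2.63 over the members and 0.96 over all genes. VC.1 was the lowest VC library for 7 members and AP.3 the lowest AP library for 7. In bulk tissue, fewer cells of a type and less RNA per cell cannot be told apart, so these levels do not separate a larger gland share from more active glands. The comparisons of the members between AP and VC are therefore given with and without VC.2. Leaving out each library in turn was planned; setting the fit without VC.2 beside that of all libraries was chosen after its values were seen, and it removes the highest control value of every member.

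Across the 8 libraries, no sebaceous gland gene passed the test between AP and VC. In the limma fit over all genes, 0 of the 9 members had a Benjamini-Hochberg adjusted p under 0.05, whereas 10.3% of all genes tested did (1011 higher and 639 lower in AP). At an unadjusted p under 0.05 the count was 1 of 9, Fasn, against 30.3% of all genes. Other tests of the recovered reads called 0 members with edgeR (10.7% of all genes), 0 with voom (9.01%) and 1, Fasn, with DESeq2 (19%). The VC and AP libraries overlapped for every one of the 9 members, while 19.2% of all genes had groups that did not overlap. The median log2 fold change of the members was 0.15, with 5 above 0, beside 0.06 over all genes. The sign of this median depended on the test: it was -0.16 with edgeR and -0.14 with DESeq2 over the same 8 libraries.

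Without VC.2, 2 of the 9 members were called, Fasn and Krt79, both higher in AP, and 9.44% of all genes were called in that fit. The groups then did not overlap for 3 members, Fasn, Krt79 and Far2, against 26% of all genes. The median log2 fold change of the members moved to 0.50 and that of all genes stayed at 0.06.

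**Figure D1:**
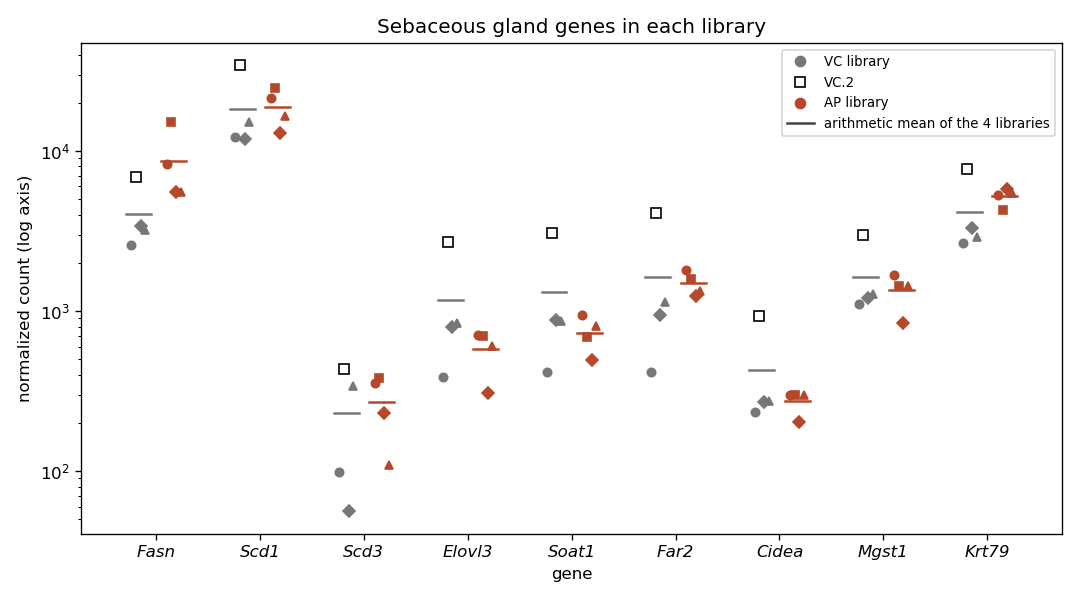
Normalized counts (log axis) of the 9 sebaceous gland genes in each library, VC in grey and AP in red, with a line at the arithmetic mean of each group of 4. Shapes separate the libraries within a group and pair none of them. VC.2, the open square, is the highest VC library for 9 of 9 genes and lies above all AP libraries for 8 of them.

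Among the enzymes of fatty acid synthesis, Fasn had the largest fold change of the set. Fasn (ENSMUSG00000025153, chromosome 11 of mm10, 120805846 to 120824547) encodes fatty acid synthase, which builds palmitate from acetyl-CoA and malonyl-CoA. Its normalized counts were 2576, 6903, 3401 and 3189 in the VC libraries and 8307, 15261, 5503 and 5533 in the AP libraries. AP.2 was by far the highest, AP.1 also exceeded every VC library, and VC.2 lay above AP.3 and AP.4, so the groups overlapped through that library. The means were 4017 ± 1955 in VC and 8651 ± 4598 in AP (SD, n = 4 each), and the log2 fold change was 1.08 (SE 0.37, 95% interval 0.27 to 1.89, limma adjusted p = 0.0785). Without VC.2 the control mean was 3056 ± 429 (SD, n = 3) and Fasn was called higher, with a log2 fold change of 1.38 (SE 0.34, limma adjusted p = 0.0368).

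Scd1 and Scd3 encode stearoyl-CoA desaturases, which put a double bond into saturated fatty acids. Scd1 (ENSMUSG00000037071, chromosome 19, 44394455 to 44407879) had normalized counts of 12257, 34295, 11817 and 15223 in the VC libraries and 21574, 24685, 12867 and 16589 in the AP libraries. Apart from VC.2, its VC libraries lay close together and AP.3 fell among them, so the groups overlapped with or without VC.2. The log2 fold change of Scd1 was 0.15 (SE 0.38, 95% interval -0.69 to 0.98, limma adjusted p = 0.823), and 0.50 (SE 0.31, limma adjusted p = 0.310) without VC.2. Scd3 (ENSMUSG00000025202, chromosome 19, 44203269 to 44244016), a desaturase largely of the sebaceous gland, had far lower values of 98.2, 432, 56.0 and 338 in VC and 354, 379, 230 and 109 in AP. It was the only member for which VC.4 came near VC.2, and its AP values lay inside the VC range. The log2 fold change of Scd3 was 0.51 (SE 0.61, 95% interval -0.81 to 1.84, limma adjusted p = 0.598) and 0.96 (SE 0.58, limma adjusted p = 0.287) without VC.2. These neighbouring genes are alike in sequence: 4.56% of the 50-base words in Scd1 transcripts and 6.57% of those in Scd3 transcripts also occur in transcripts of other genes, mostly in each other, so a small share of their reads cannot be assigned with certainty.

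Elovl3 had the lowest log2 fold change of the set, and it came closer to 0 without VC.2. The gene (ENSMUSG00000038754, chromosome 19, 46131897 to 46135694) encodes an elongase of very long saturated and monounsaturated fatty acids. Its normalized counts were 386, 2697, 789 and 848 in the VC libraries and 710, 695, 305 and 602 in the AP libraries. VC.1 and AP.3 were low, VC.2 was high, and the other 5 libraries lay between 602 and 848. The log2 fold change was -0.73 (SE 0.48, 95% interval -1.79 to 0.32, limma adjusted p = 0.330), and -0.21 (SE 0.35, limma adjusted p = 0.706) without VC.2. It was -1.15 without VC.1 (limma adjusted p = 0.129) and -0.45 without AP.3 (0.618), and was not called with any 1 library left out.

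Far2, Soat1 and Cidea, which make alcohols and esters or handle droplets, were not called with or without VC.2. Far2 (ENSMUSG00000030303, chromosome 6, 148047259 to 148182758) encodes a fatty acyl-CoA reductase that supplies the alcohols of wax esters. Its normalized counts were 413, 4068, 946 and 1136 in the VC libraries and 1802, 1578, 1239 and 1328 in the AP libraries. VC.1 was the lowest and VC.2 the highest of the 8, enclosing the narrow AP range, yet every AP library was above VC.1, VC.3 and VC.4. The mean of Far2 was higher in VC (1641 ± 1647) than in AP (1487 ± 254, SD, n = 4 each), whereas the log2 fold change, which weighs VC.2 less, was 0.34 (SE 0.52, 95% interval -0.79 to 1.47, limma adjusted p = 0.688). Without VC.2 it was 0.95 (SE 0.31, limma adjusted p = 0.0781), still not called. The exons of Far2 share 837 bases with Ergic2 on the opposite strand, and 10.8% of its 50-base words occur in other transcripts, so without strand its reads and those of Ergic2 cannot be told apart there.

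Soat1 (ENSMUSG00000026600, chromosome 1, 156424525 to 156474331) encodes sterol O-acyltransferase, which joins cholesterol to fatty acids. Soat1 had normalized counts of 418, 3091, 877 and 866 in the VC libraries and 944, 687, 492 and 801 in the AP libraries. Except for VC.2, the VC and AP values covered nearly the same range. The log2 fold change of Soat1 was -0.48 (SE 0.47, 95% interval -1.52 to 0.55, limma adjusted p = 0.517), and 0.06 (SE 0.30, limma adjusted p = 0.911) without VC.2. Cidea (ENSMUSG00000024526, chromosome 18, 67343604 to 67367785) encodes a lipid droplet protein that promotes the fusion of droplets and is also known from brown fat. Its normalized counts were 233, 931, 272 and 274 in the VC libraries and 299, 298, 203 and 299 in the AP libraries. Outside VC.2 all 7 libraries fell between 203 and 299, the tightest pattern among the members. The log2 fold change of Cidea was -0.39 (SE 0.38, 95% interval -1.22 to 0.43, limma adjusted p = 0.509), and 0.07 (SE 0.20, 95% interval -0.38 to 0.51, limma adjusted p = 0.845) without VC.2.

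Mgst1 and Krt79 do not make sebum lipids. Mgst1 (ENSMUSG00000008540, chromosome 6, 138140316 to 138156755) encodes a membrane-bound glutathione transferase that also reduces lipid peroxides and is abundant in sebocytes. For Mgst1 the normalized counts were 1102, 2972, 1202 and 1273 in the VC libraries and 1683, 1423, 843 and 1424 in the AP libraries. VC.2 was high and AP.3 low, and the groups overlapped with or without VC.2. The log2 fold change of Mgst1 was -0.20 (SE 0.31, 95% interval -0.88 to 0.48, limma adjusted p = 0.700), and 0.13 (SE 0.23, limma adjusted p = 0.732) without VC.2.

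Krt79 (ENSMUSG00000061397, chromosome 15, 101929332 to 101940324) encodes a keratin of the gland, its duct and the follicle canal above it. Its normalized counts were 2667, 7726, 3284 and 2906 in the VC libraries and 5329, 4305, 5751 and 5464 in the AP libraries. The AP libraries were close together and all above VC.1, VC.3 and VC.4, and all below VC.2. AP.3, the lowest AP library for 7 of the other members, was the highest for Krt79. The means were 4146 ± 2400 in VC and 5212 ± 630 in AP (SD, n = 4 each), with a log2 fold change of 0.47 (SE 0.30, 95% interval -0.20 to 1.13, limma adjusted p = 0.321). Without VC.2 the control mean was 2952 ± 311 (SD, n = 3), and Krt79 was called higher with a log2 fold change of 0.82 (SE 0.19, limma adjusted p = 0.0294).

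**Figure D2:**
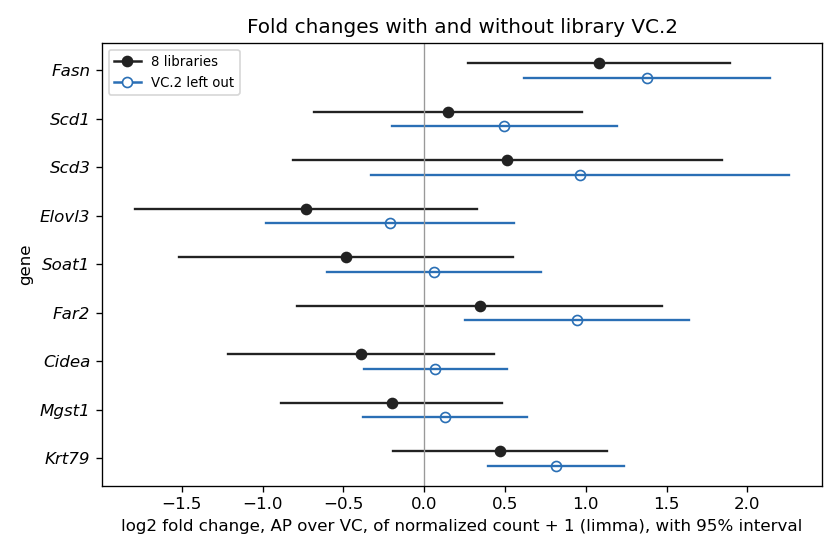
Log2 fold changes of AP over VC from limma for the 9 genes, with 95% intervals, over 8 libraries (filled) and with VC.2 left out (open). With all libraries only the interval of Fasn (0.27 to 1.89) lies above 0, before adjustment over all genes; without VC.2 every estimate moves to the right.

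Fasn and Krt79 were also called without VC.2 by edgeR, DESeq2 and voom and with each of 4 other scalings. All these fits used the same libraries and lacked the highest control value of both genes, so they are not independent support. They called 5.11% (voom) to 18.4% (DESeq2) of all genes, and 52.6% with total-read scaling. When a further library was also left out, Fasn was called in 2 of 7 fits and Krt79 in 3 of 7. Their log2 fold changes stayed at 1.06 to 1.55 and 0.75 to 0.91, while the number of all genes called in these fits ran from 156 to 2164. With the 8 libraries scaled to total reads, which the mitochondrial share enters, Fasn, Scd1 and Krt79 were called, but in that fit 54.7% of all genes were called and the median of all genes was 0.90. Relative to that median the log2 fold changes of these members were 1.05, 0.12 and 0.44, against 1.02, 0.09 and 0.41 with the deposited scaling.

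To compare levels between genes, normalized counts were divided by exon length in kilobases. By this measure Scd1 was far above the rest, with 3761 ± 2188 in VC and 3869 ± 1071 in AP (SD, n = 4 each). Its lowest library (2415) exceeded the highest library of any other member (1625, Krt79 in VC.2). Krt79 (872 ± 505) and Mgst1 (813 ± 443) followed in VC, and their ranges overlapped almost completely. Elovl3, Cidea and Fasn came next in VC at 597 ± 523, 383 ± 302 and 367 ± 179 per kilobase. Neighbours in this order differed by less than their spread, which takes in the high VC.2 shared by these genes. Within libraries, Fasn exceeded Cidea in VC.1, VC.3 and VC.4 (235, 311 and 291 against 209, 244 and 246). Only in VC.2 (631 against 835) was their order the reverse. The lowest were Far2 (224 ± 225), Soat1 (134 ± 123) and Scd3 (65.0 ± 51.4). In AP the level of Fasn per kilobase was 790 ± 420, the rank after Scd1 and Krt79 (1097 ± 132), while Elovl3 (293 ± 95.2) and Cidea (246 ± 42.8) stood below Mgst1 (667 ± 177). Scd3 and Soat1, at 75.5 ± 35.0 and 74.7 ± 19.5, were the lowest in AP and did not differ beyond their spread.

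The 9 members varied together over the 8 libraries, less so for several of them without VC.2. The mean of their centred log2 values was -0.85 in VC.1, 1.26 in VC.2, -0.46 in VC.3 and -0.12 in VC.4, and the AP libraries stood at 0.32, 0.31, -0.36 and -0.10. The AP libraries lay within the VC range, between the low VC.1 and the high VC.2. Scd1 and Far2 followed this common profile most closely (Pearson r of 0.960 and 0.957 over the 8 libraries), and Fasn least (0.637), as a description in which each gene is part of the profile. Without VC.2, Scd1 (0.921) and Far2 (0.915) were still the closest and Fasn came next (0.843), while Soat1 (0.642), Krt79 (0.548) and Elovl3 (0.534) were the least close. After centring within each group, r ran from 0.733 for Scd3 to 0.964 for Far2, with Fasn at 0.816.

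Among 11248 other genes with a mean of at least 50 normalized counts, those most like this profile over the 8 libraries by Pearson r were Me1 (0.987), Mtf1 (0.982), Tmem164 (0.981), Mgll (0.981) and Tmem135 (0.980). These values describe the closest of many genes and carry no test. Me1 encodes malic enzyme, a source of NADPH, and Mgll encodes monoacylglycerol lipase. After centring within each group, the closest were Mgll (0.991), Pnpla5 (0.988), Me1 (0.987), Fitm2 (0.987) and Tmem135 (0.985). With VC.2 left out, r to the profile was 0.980 for Me1, 0.945 for Fitm2 and 0.780 for Pnpla5. Fitm2 encodes a protein of the endoplasmic reticulum needed to form lipid droplets.

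Further genes of fatty acid supply and remodelling were examined as a list of 20, of which 19 were tested. The limma counts of this list and the following lists stand beside 10.3% of all genes called, and 9.44% without VC.2. In AP, 3 rose and 1 fell in the limma fit, and the median log2 fold change was 0.31, beside 0.06 over all genes. Scd2, the desaturase expressed widely outside the gland, had 828, 1178, 1005 and 853 normalized counts in VC and 1361, 2317, 1655 and 1832 in AP. Every AP library was above every VC library, and Scd2 rose by a log2 fold change of 0.88 (SE 0.19, limma adjusted p = 0.0205). Elovl1, an elongase of saturated very long chains, rose from 171, 372, 292 and 373 to 506, 509, 795 and 843, again with no overlap (1.16, SE 0.27, limma adjusted p = 0.0263). Acsl1, which activates fatty acids with coenzyme A and is abundant in fat cells, rose from 719, 514, 509 and 506 to 1047, 1920, 929 and 908 (1.04, SE 0.24, limma adjusted p = 0.0245), highest in AP.2 as Fasn was. With 1 library left out, the call of Scd2 was lost without AP.2, AP.3 or AP.4 (adjusted p up to 0.0583), that of Elovl1 without AP.3 or AP.4 (up to 0.0876) and that of Acsl1 without AP.3 (0.0516).

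Fads1, a desaturase of polyunsaturated fatty acids, was the gene of this list that fell, from 311, 313, 335 and 441 to 259, 247, 206 and 195. No AP library reached a VC library, and its log2 fold change was -0.62 (SE 0.18, limma adjusted p = 0.0498). It was called with only 1 of the 8 libraries left out, AP.1, and not without any other (-0.67 without VC.2; adjusted p up to 0.145). With total-read scaling it was 0.25, which is -0.65 relative to the median of all genes, against -0.68 with the deposited scaling. Elovl6, the most abundant gene of the list and the elongase of palmitate, had 2268, 16459, 3808 and 2828 normalized counts in VC and 7642, 3758, 5210 and 7214 in AP. It followed the members in being highest in VC.2, as 13 of the 19 tested genes of the list were among the VC libraries, and it was not called (0.36, SE 0.52, limma adjusted p = 0.677, and 0.98, adjusted p = 0.0568, without VC.2). The sign for Elovl6 turned with edgeR and DESeq2 (down to -0.10), and in limma it was 0.03 without VC.1. Without VC.2, 6 genes of the list were higher in AP and 0 lower, with a median of 0.70.

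The list of wax ester, triglyceride and droplet genes held 17, of which 16 were tested, and 12 of the 16 were highest in VC.2 among the VC libraries. In the limma fit only Gpam, the acyltransferase that starts triglyceride synthesis, rose in AP, and 0 fell (1 rose and 0 fell with edgeR, 1 and 1 with DESeq2 and 1 and 0 with voom, not all the same genes); the median log2 fold change was 0.01. Gpam had 111, 409, 84.7 and 60.0 normalized counts in VC and 394, 474, 356 and 345 in AP. VC.2 lay inside the AP range and the other VC libraries far below it, giving a log2 fold change of 1.65 (SE 0.47, limma adjusted p = 0.0455) with VC.2 and 2.22 (SE 0.24, limma adjusted p = 0.00384) without it. The call was lost with edgeR, DESeq2, upper-quartile scaling and no intensity trend, and without any 1 of the other 7 libraries (adjusted p up to 0.109, log2 fold change at least 1.31). Fa2h, the most abundant gene of the list, encodes fatty acid 2-hydroxylase and had 631, 8209, 1842 and 2121 in VC and 3142, 2091, 1816 and 2509 in AP. Its VC values enclosed its AP values, much as for Far2, and it was not called (0.14, SE 0.58, limma adjusted p = 0.892, and 0.79, adjusted p = 0.188, without VC.2). The sign for Fa2h turned with edgeR and DESeq2, and in limma without VC.1 (-0.44) or without AP.1 (-0.001). Without VC.2, 2 genes of this list were higher and 0 lower, with a median of 0.08.

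Of 13 regulators of sebocytes and of lipid synthesis, all were tested and 0 were called in either direction with limma, edgeR or voom. With DESeq2, 1, Scap, was called higher, beside 19% of all genes called. At an unadjusted limma p under 0.05 there were 4, beside 30.3% of all genes, and the median log2 fold change of the 13 was 0.43. Cebpa, the most abundant of them and a transcription factor of lipid-storing cells, had 1943, 3389, 2189 and 1843 normalized counts in VC and 2433, 2934, 3553 and 3962 in AP. VC.2 again lay within the AP range (0.48, SE 0.23, limma adjusted p = 0.178, and 0.67, adjusted p = 0.0618, without VC.2). Mc5r, the melanocortin receptor of the gland, was chosen for mention after its values were seen: it was at 0, 88.7, 20.5 and 11.3 in VC and at 45.0, 35.0, 11.0 and 32.9 in AP. Its order in VC was that of several members, with VC.2 high and VC.1 low. Without VC.2, limma called 1 regulator higher, again Scap, the escort protein of the sterol-regulated transcription factors (340, 715, 468 and 373 normalized counts in VC and 635, 722, 868 and 943 in AP, limma adjusted p = 0.0527 with VC.2 and 0.0209 without).

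Krt79 is also made in the neighbouring upper follicle, and most markers of that region were higher in AP. Of 7 tested, 4 rose and 0 fell, with a median log2 fold change of 1.13, and the same counts were obtained without VC.2. The most abundant was Krt17 (not called, 0.56, SE 0.30, limma adjusted p = 0.231), and none was at 0 in any library. Lrig1, a marker of stem cells of the follicle junction next to the gland, had 273, 464, 391 and 362 normalized counts in VC and 770, 762, 975 and 714 in AP. All AP libraries were above all VC libraries (1.13, SE 0.18, limma adjusted p = 0.00896). Plet1, also of the follicle junction, rose by a log2 fold change of 1.13 (SE 0.27, limma adjusted p = 0.0270), and the defensin gene Defb6 and the cystatin gene Cst6 rose by 1.30 (SE 0.20, limma adjusted p = 0.00843) and 1.83 (SE 0.21, limma adjusted p = 0.00231). The call of Plet1 was lost without AP.2, AP.3 or AP.4 (adjusted p up to 0.0974). Summed over the 7 genes, the VC libraries held 6902, 6935, 7718 and 4056 normalized counts and the AP libraries 7959, 9140, 14691 and 12380. VC.2 was the highest VC library for 3 of the 7, Lrig1, Plet1 and Defb6, and lay within the range of the other VC libraries in the sum, most of which was Krt17.

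Keratinocyte markers also moved with the groups. Of 12 suprabasal genes, 9 rose and 0 fell, with a median log2 fold change of 3.11. Krt10, the most abundant, had 1302, 4085, 2280 and 1838 normalized counts in VC and 15852, 17528, 47444 and 73322 in AP (3.85, SE 0.50, limma adjusted p = 0.00367). Krt77, Dsc1, Krt1, Dsg1a and Ivl rose by log2 fold changes of 3.95, 3.29, 3.46, 2.70 and 2.89 (limma adjusted p = 0.00435, 0.00780, 0.00843, 0.00843 and 0.0113). The 12 genes summed to 6081, 12398, 8556 and 5683 in VC and 42171, 40061, 118678 and 165828 in AP, and Krt2 was at 0 in VC.4. Of 7 basal genes 3 rose and 0 fell, with a median of 1.02, and Krt14 was the most abundant (1.02, SE 0.53, limma adjusted p = 0.212). The genes that rose were Itga6 (1.92, SE 0.31, limma adjusted p = 0.00896), Itgb4 (1.11, SE 0.31, limma adjusted p = 0.0425) and Col17a1 (1.73, SE 0.42, limma adjusted p = 0.0298), which anchor basal cells to the basement membrane. Itgb4 was not called without VC.1, VC.4, AP.2, AP.3 or AP.4 (adjusted p up to 0.118), and Col17a1 not without VC.1, VC.4, AP.3 or AP.4 (up to 0.0912). Neither was called with no intensity trend, and Itgb4 also not with edgeR or total reads without mitochondrial genes. The basal genes summed to 28878, 82600, 52055 and 24681 in VC and 54637, 54592, 101778 and 145127 in AP. VC.2 was the highest VC library in both sums, and AP.3 and AP.4 were the highest of all. Without VC.2, 7 suprabasal and 3 basal genes were called higher. The sum of the upper follicle markers was also highest in AP.3 and AP.4. The part of suprabasal and basal keratinocytes in the values of Krt79 and of the upper follicle markers was not tested.

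Fat cell markers were not high in VC.2. Of 12 white adipocyte genes, limma called 0 with or without VC.2, and edgeR, DESeq2 and voom called 0. At an unadjusted limma p under 0.05 there were 2, beside 30.3% of all genes, and the median log2 fold change of the 12 was 0.26. The 12 genes summed to 54681, 22005, 21926 and 37379 in VC and 37907, 56146, 25156 and 20349 in AP, and none was at 0. VC.2 was the lowest VC library for 8 of the 12 genes and the highest for 0. In AP the sum was highest in AP.2, where Fasn (15261) and Acsl1 (1920) were also highest, and the part of fat cells in the values of Fasn was not tested. Cfd, the most abundant, had 13925, 4120, 3601 and 9810 normalized counts in VC and 11451, 14584, 6778 and 5855 in AP (0.43, SE 0.45, limma adjusted p = 0.546). Brown adipocyte genes, examined because Cidea marks that tissue too, were few. The table held 6 of 7, all but Ucp1, and 5 were tested. Over all libraries, limma, edgeR and DESeq2 called 0 (2 at an unadjusted limma p under 0.05, beside 30.3% of all genes). Cox8b was called lower with voom, and with limma without AP.1 (-1.95, adjusted p = 0.00666). Their sum was 518, 609, 628 and 296 in VC and 470, 232, 174 and 266 in AP, Cox8b was the most abundant gene, and Otop1 was at 0 in some libraries. Among the AP libraries Cox8b was highest in AP.1, at 244 against 46.3 to 75.5, as was the sum of the skeletal muscle genes given below. The part of muscle in the values of Cox8b was not tested.

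Of the remaining tissue markers, 0 of 6 fibroblast, 0 of 6 skeletal muscle and 0 of 6 leukocyte genes were called with limma, edgeR or voom, with median log2 fold changes of 0.49, -1.78 and -0.69 (0.32, -1.58 and -0.84 without VC.2). At an unadjusted limma p under 0.05 the counts were 1, 5 and 4, beside 30.3% of all genes. DESeq2 called 0, 0 and 2, beside 19% of all genes, and the 2 were the leukocyte genes Lyz2 and Adgre1, both lower in AP. Col1a1, Acta1 and Lyz2 were the most abundant of these lists. All 6 muscle genes were highest in VC.2 among the VC libraries, and their sum was 68135 there against 33602 to 48744 in the other VC libraries. In AP the muscle genes summed to 62952 in AP.1 and to 5429 to 11520 in the other libraries. Without AP.1, Acta1 was called lower (-2.62, limma adjusted p = 0.00243), and without VC.3, Lyz2 was (-1.37, limma adjusted p = 0.0406). Without VC.2, 1 leukocyte gene was lower in AP, Adgre1, named like Scap after its values were seen (-1.20, SE 0.26, limma adjusted p = 0.0239). Of 12 mitochondrially encoded genes tested, 10 fell with limma, with a median of -3.38, and all 12 fell with each of edgeR, DESeq2 and voom. The lowest limma adjusted p (0.000918 to 0.00435) were those of mt-Co2, mt-Atp6, mt-Nd4l, mt-Nd3, mt-Co3 and mt-Nd6, and mt-Co1 was the most abundant. The share of mitochondrial reads was 44.9% in VC.2, within the range of the other VC libraries (42.1% to 54.3%).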

How the data were processed

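Polyadenylated RNA was captured on oligo-dT beads and sequenced on a NovaSeq at Novogene. The authors used STAR to align the reads to mm10 before counting them. The study's methods name featureCounts and the labels HTSeq; versions, annotation and strand setting were not given in the sources used here. The deposited signal values are read counts that the authors divided by a DESeq2 size factor per library. The table also holds the authors' own DESeq2 comparison (means, fold changes and p-values), which was not used. All 150160 values (100%) were whole multiples of a step per library (within 0.1 read), so the reads behind each value were recovered for the count tests. Reads on genes left out of the deposited table could not be recovered.

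AP and VC were compared with limma 3.58.1 (intensity trend) on log2(normalized count + 1), a scale that understates changes of low genes. Genes needed at least 3 normalized counts in at least 4 libraries (15964 genes; all 9 members passed). Benjamini-Hochberg adjustment ran over all genes tested, and 0.05 was the threshold. Alternatives used edgeR 4.0.16, DESeq2 1.42.0, voom, other pseudocounts, filters and scalings, and left out each library. Counts were simulated with the same dispersion for every gene and no outlying library. On these, limma, edgeR, DESeq2 and voom called most of the changed genes and few others. The libraries here include an outlying one for the members, so the simulation does not measure power or false calls in these data. Replicate libraries differed by more than sampling noise. Positions and exon lengths came from GENCODE M21.

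Genes named are all members, in each list those called (at most 6 by adjusted p) and the most abundant, and the 5 most like the members by each measure. Krt2 and Otop1 are named for values of 0, Ucp1 because the table lacks it, and Ergic2 for the exon bases it shares with Far2. Others are said to be chosen later. Members and lists were chosen with earlier results of these data known. One gene was taken out of the regulators list after the results were seen, for a reason other than its values, and is not reported here.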

Additional observations from a re-analysis of the deposited data

Results flagged for a closer look

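In a group of 4 libraries, a library was picked out when its gap to the nearest other, divided by the range of the group, exceeded Dixon's 95% critical value. For unrelated genes with normally distributed values, chance alone gives about 1 in 20 groups. The ratios were taken on untransformed normalized counts, not on the log2 scale of the tests, and many of the genes vary together. The count of hits therefore cannot be set against that rate. Of 88 pairs of gene and group examined, 13 were hits, 6 of them in VC.2. Among the members, VC.2 was far above the other VC libraries for Scd1 (ratio 0.848), Cidea (0.941), Mgst1 (0.909) and Krt79 (0.878). VC.2 was likewise far above them for Elovl6 (0.891) and Gpam (0.854). AP.3 was far below the other AP libraries for Cidea (0.992), where it held 203 normalized counts against at least 298. AP.3 was also far below for mt-Co2 (0.834) and mt-Nd3 (0.949). Acsl1 was far higher in VC.1 than in the other VC libraries (0.962) and far higher in AP.2 than in the other AP libraries (0.862). AP.1 was far above the other AP libraries for Acta1 (0.862) and for Cox8b (0.853). The causes were not tested.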

How the results depend on the processing

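The count of 0 members called held in 10 of 12 alternatives of pseudocount, filter, scaling and test, which called 3.71% to 11.6% of all genes. It also held in the limma fit with the study's cut-offs (fold change over 1.5, p before adjustment under 0.01), which called 13.6% of all genes. The study applied them to DESeq2. In the DESeq2 fit made here, a check added later, they called 1 member, Fasn, and 2743 genes in all (17.2%). At adjusted p under 0.05, DESeq2 called 1 member and 19% of all genes, and total-read scaling 3 members and 54.7%. Leaving out libraries in turn, alone or together with VC.2, gave 0 to 2 members called and 1.01% to 14% of all genes. With VC.2 left out, edgeR, DESeq2, voom, TMM, upper-quartile scaling and total reads without mitochondrial genes each called 2 members and 5.11% to 18.4% of all genes, and total-read scaling 8 members and 52.6% of all genes; these fits, and those without VC.2 and a further library, were added once the data had been seen. The members' median was below 0 with edgeR (-0.16) and DESeq2 (-0.14). It was 1.02 with total-read scaling and 1.41 with total-read scaling without VC.2, where the median of all genes was 0.90 and 0.94. With total-read scaling Elovl3 (0.14), Soat1 (0.38), Cidea (0.48) and Mgst1 (0.67) were above 0 but still below the median of all genes, by 0.76, 0.52, 0.43 and 0.23 (0.79, 0.54, 0.45 and 0.26 with the deposited scaling). Signs turned for Far2 with edgeR (-0.16) and DESeq2 (-0.14). Leaving out 1 library gave log2 fold changes of -0.016 (without VC.3) to 0.50 for Scd1, 0.76 (without AP.2) to 1.38 (without VC.2) for Fasn, 0.31 (without VC.1) to 0.82 (without VC.2) for Krt79, -0.010 (without VC.3) to 0.96 for Scd3, -1.15 (without VC.1) to -0.21 (without VC.2) for Elovl3, -0.90 to 0.060 (without VC.2) for Soat1, -0.15 (without VC.1) to 0.95 for Far2, -0.60 to 0.068 (without VC.2) for Cidea and -0.35 to 0.13 (without VC.2, and also above 0 without AP.3) for Mgst1, and the members' median ran from -0.15 without VC.1 to 0.50 without VC.2. Over the 20 alternatives fitted, the adjusted p ran from 0.00247 to 0.183 for Fasn (called in 3) and from 0.00730 to 0.558 for Krt79 (called in 2). Scd2 was called in 16 of the 20, Elovl1 in 17, Acsl1 in 18, Gpam in 9, Fads1 in 7 and Itgb4 in 12.

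All genes called numbered 3039 with DESeq2, 592 without the intensity trend, 8727 with total-read scaling, and 307 (without AP.3) to 1873 (without AP.1) when 1 library was left out. Of the calls, 61.3% were higher in AP, 49.9% with upper-quartile scaling, 49.7% with voom and 99.2% with total-read scaling. The cause of these differences was not tested, except that fewer libraries enter some fits. No paired analysis was possible because the columns share no labelled animal or replicate number. With 4 libraries a group, the 95% intervals of the members, 1.33 to 2.65 log2 units wide, limit what could be detected.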
